A study of Mus musculus with 3 samples.

Results

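The 39 protein-coding genes of the mouse Hox clusters A, B, C and D were followed in single-nucleus ATAC-seq (snATAC-seq), an assay that tags open chromatin with the transposase Tn5 and reads it nucleus by nucleus from barcodes. They were taken by name from the 21751 protein-coding genes counted, and the 4 cluster spans were also read in 103 bins of 5 kb. Wild-type embryos of the mouse strain C57BL/6JRj were used, with 1 library for each of the stages E12.5, E13.5 and E15.5. Nuclei were released from frozen embryo sections, so that a library mixes many tissues and several body levels. Of the 1879 nuclei in the deposited table, the 1450 outside the shallow deposited clusters 2 and 4 were used: 83, 809 and 558 in the order of the stages.

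Hox genes encode homeodomain transcription factors that give cells their position along the body axis. They lie in order in each cluster: the low-numbered paralogues are transcribed earlier and up to more anterior levels, the high-numbered paralogues later and more posteriorly, and in the limbs. Where they are silent, their CpG-rich chromatin is a classic target of Polycomb repression, and tissues of the fore- and midbrain lack Hox expression. Paralogues 1 to 5 are called anterior here (15 genes), 6 to 9 middle (12 genes) and 10 to 13 posterior (12 genes).

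The clusters lie on build mm10. Cluster A has 11 genes on the minus strand at chr6:52155590-52260880, cluster B has 10 genes at chr11:96194316-96368256, cluster C has 9 genes at chr15:102921103-103036852 and cluster D has 9 genes at chr2:74668310-74765142, the last 3 on the plus strand. The 250 bases before the annotated start of 2 genes that carry the results below are printed 5′ to 3′ from the GRCm38 reference. Capitals mark the letters of the motifs searched on both strands: the CCAAT box, the AGGTCA letters read by retinoic acid receptors, the TGATNNAT letters bound by Hox with Pbx factors, the TGACAG letters of Meis factors, the TATAAA letters of the TATA box and the AGATAA letters of GATA factors.
Hoxa5 (chr6:52204588-52204837, minus strand): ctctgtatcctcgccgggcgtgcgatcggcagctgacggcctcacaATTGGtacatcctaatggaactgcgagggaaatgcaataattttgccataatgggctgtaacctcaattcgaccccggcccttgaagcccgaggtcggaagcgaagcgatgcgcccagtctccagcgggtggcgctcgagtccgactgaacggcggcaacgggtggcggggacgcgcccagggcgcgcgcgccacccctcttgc
Hoxd10 (chr2:74691674-74691923, plus strand): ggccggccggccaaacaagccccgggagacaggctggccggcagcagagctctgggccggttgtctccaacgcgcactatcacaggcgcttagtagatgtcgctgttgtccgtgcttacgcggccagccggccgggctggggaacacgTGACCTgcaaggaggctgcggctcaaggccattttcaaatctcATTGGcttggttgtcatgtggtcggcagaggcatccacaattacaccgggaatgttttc

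Both hold CCAAT, read on the opposite strand. CCAAT was found in 24 of the 39 Hox stretches (61.5%), against 34.8% of all 21751. The Hox-Pbx letters TGATNNAT were found in 7 (17.9%) against 6.8% of all. AGGTCA was found in 5 (12.8% against 12.2%), TGACAG in 4 (10.3% against 14.9%), TATAAA in 6 (15.4% against 12.2%) and AGATAA in 1 (2.56% against 9.08%). A match describes these letters in this window and is no evidence of a bound factor. The promoter windows of the Hox genes had a median GC content of 53.1%, against 49.6% for all genes, and a median ratio of observed to expected CpG of 0.509 against 0.414.

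The clusters also hold microRNA genes that are conserved along with them. The mature 5p arms of the miR-10 and miR-196 families, from RefSeq on the same build, fall into 2 seed groups, with the seed (bases 2 to 8) in capitals. Mir615 in cluster C has another seed and is not followed here.
miR-10a-5p (cluster B): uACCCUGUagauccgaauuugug
miR-10b-5p (cluster D): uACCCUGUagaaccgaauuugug
miR-196a-5p (clusters B and C): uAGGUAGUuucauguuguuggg
miR-196b-5p (cluster A): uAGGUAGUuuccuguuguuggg

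Cell classes are the deposited clusters, which rest at least in part on the accessibility of these same nuclei, so a test between them describes the clusters. From gene windows, neuron markers were raised at least 1.5-fold in clusters 0 (8 of 8) and 6 (6 of 8), mesenchyme markers in cluster 1 (7 of 7), neural progenitor markers in cluster 9 (7 of 7), muscle markers in cluster 10 (7 of 7) and erythroid markers in clusters 5 and 11 (7 of 7 each). These are called neuron-like, mesenchyme-like, neural progenitor-like, muscle-like and erythroid-like. Cluster 10 also raised 4 of 5 heart muscle and 4 of 5 sensory neuron markers. Cluster 6 also raised 4 of 7 neural progenitor and 6 of 6 excitatory neuron markers. No marker of its neuron list was among its leading 10 genes, but 4 of the excitatory neuron markers were. Clusters 3, 7 and 8 stay unnamed: cluster 3 raised 7 of 7 mesenchyme markers but none was among its leading 10 genes, which included Hoxc11 and Hoxb7, cluster 7 raised chondrocyte, epithelial and Schwann cell markers, and cluster 8 raised liver, white blood and endothelial markers.

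The level of a promoter is the number of unique fragments overlapping the window from 1000 bp upstream to 100 bp downstream of the start, in CPM (per 1000000 promoter fragments of the same nuclei) or as a fold over the mean fragment density of the genome. All windows have the same length. The share of fragments in promoters differs between classes, which moves the CPM scale: in the libraries tested it ran from 6.27% to 7.83% in cluster 3, from 33.4% to 39.9% in cluster 11, and from 8.14% to 20.8% in the other 8 classes. Both scales are therefore given for the class means and for the stages over all classes, and single genes are given in CPM.

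Over the 10 classes the median Hox promoter was at 3.98-fold over the genome mean, against 5.54-fold for all promoters, and its median rank was at the 44.7th percentile. In cluster 1 the median Hox promoter lay above that of all promoters (6.94-fold against 6.26-fold), as it did in cluster 3 (5.06-fold against 4.27-fold), and in the other 8 classes it lay below. Promoters with an observed to expected CpG ratio of at least 0.6 had a median of 21.6-fold, and 14 of the 39 Hox promoters reached that CpG ratio. Among the highest pooled levels were Hoxa4 at 10.7-fold and Hoxc10 at 9.22-fold. The lowest were Hoxb1 at 1.80-fold and Hoxb8 at 1.83-fold.

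**Figure D1:**
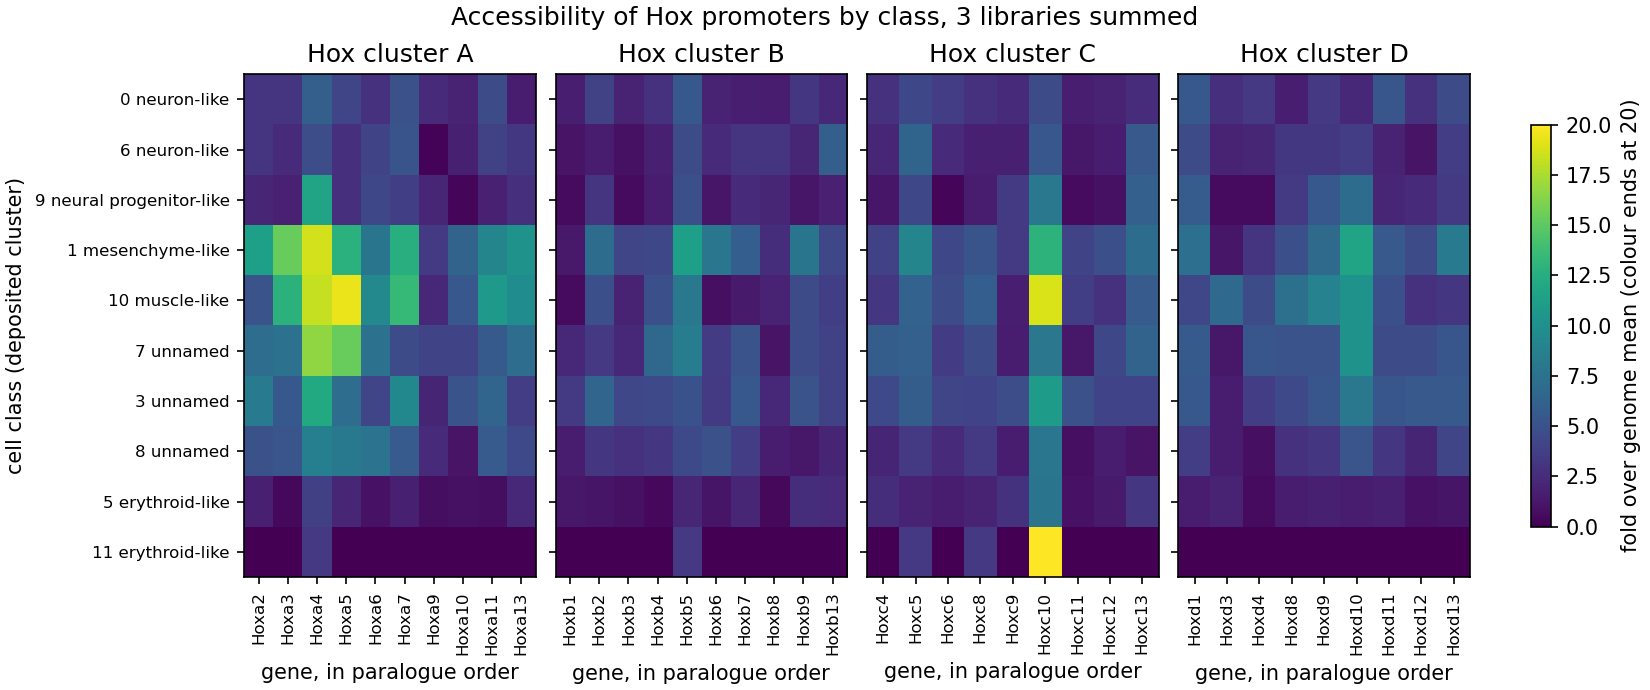
Promoter level of the Hox genes (columns, by cluster and in paralogue order; 1 gene is not shown) in the 10 cell classes (rows), as fold over the genome mean with the 3 libraries summed; the colour ends at 20. Mesenchyme-like cluster 1, muscle-like cluster 10 and unnamed cluster 7 are highest along cluster A, with Hoxa4 at 18.6-fold, 18.3-fold and 16.7-fold, while cluster 11 is at 0 for 34 genes.

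Averaged over the 39 promoters, muscle-like cluster 10 was at 6.96 ± 0.84-fold over the genome mean (SD, n = 2 libraries) and mesenchyme-like cluster 1 at 6.91 ± 1.64-fold (n = 3). Clusters 7 (5.39 ± 1.41-fold, n = 3), 3 (5.04 ± 0.96-fold, n = 3) and 8 (4.04 ± 1.22-fold, n = 2) came next. The 3 neural classes lay together, with 3.03 ± 0.61-fold in cluster 6, 3.02 ± 0.59-fold in cluster 0 and 2.98 ± 0.40-fold in cluster 9 (n = 3 each). On this scale they did not differ beyond their spread. Erythroid-like clusters 5 (1.92 ± 0.33-fold, n = 3) and 11 (1.51 ± 0.96-fold, n = 2) were lowest. In CPM the order changed at the top, since cluster 3 rose to 34.4 ± 4.98 CPM per promoter, above cluster 10 (31.5 ± 6.12) and cluster 1 (23.5 ± 6.13), beside its low share of fragments in promoters. The part of that share in its Hox level was not tested.

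The paralogue ranges were then read apart. In cluster 1 the anterior genes stood at 7.97 ± 2.37-fold, the middle genes at 5.60 ± 1.33-fold and the posterior genes at 6.90 ± 1.5002-fold. The anterior genes lay above the middle genes in each of the 3 libraries (5.35 against 4.95, 9.98 against 7.13 and 8.56 against 4.72-fold in stage order), a comparison for which 3 pairs allow no small p, and the posterior genes lay above the anterior genes at E12.5 and below them in the others. In cluster 10 the anterior genes stood at 9.16 ± 0.36-fold, above the middle genes at 5.10 ± 0.44-fold, with the posterior genes at 6.07 ± 2.75-fold (n = 2). In neuron-like cluster 0 the values were 3.62 ± 0.93, 2.52 ± 0.38 and 2.79 ± 0.41-fold. In neural progenitor-like cluster 9 they were 3.30 ± 0.22, 2.59 ± 0.92 and 2.96 ± 0.51-fold. Of the 10 classes, cluster 11 alone had posterior genes above anterior genes in libraries that did not overlap (1.69 and 5.34-fold against 0.541 and 1.42-fold), on few fragments and mostly at Hoxc10, and no class had middle genes above anterior genes in this way. Among clusters, A led in cluster 1 (10.7 ± 2.96-fold) and cluster 10 (12.2 ± 1.77-fold), while B stood at 4.92 ± 1.54 and 3.35 ± 0.029-fold there.

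**Figure D2:**
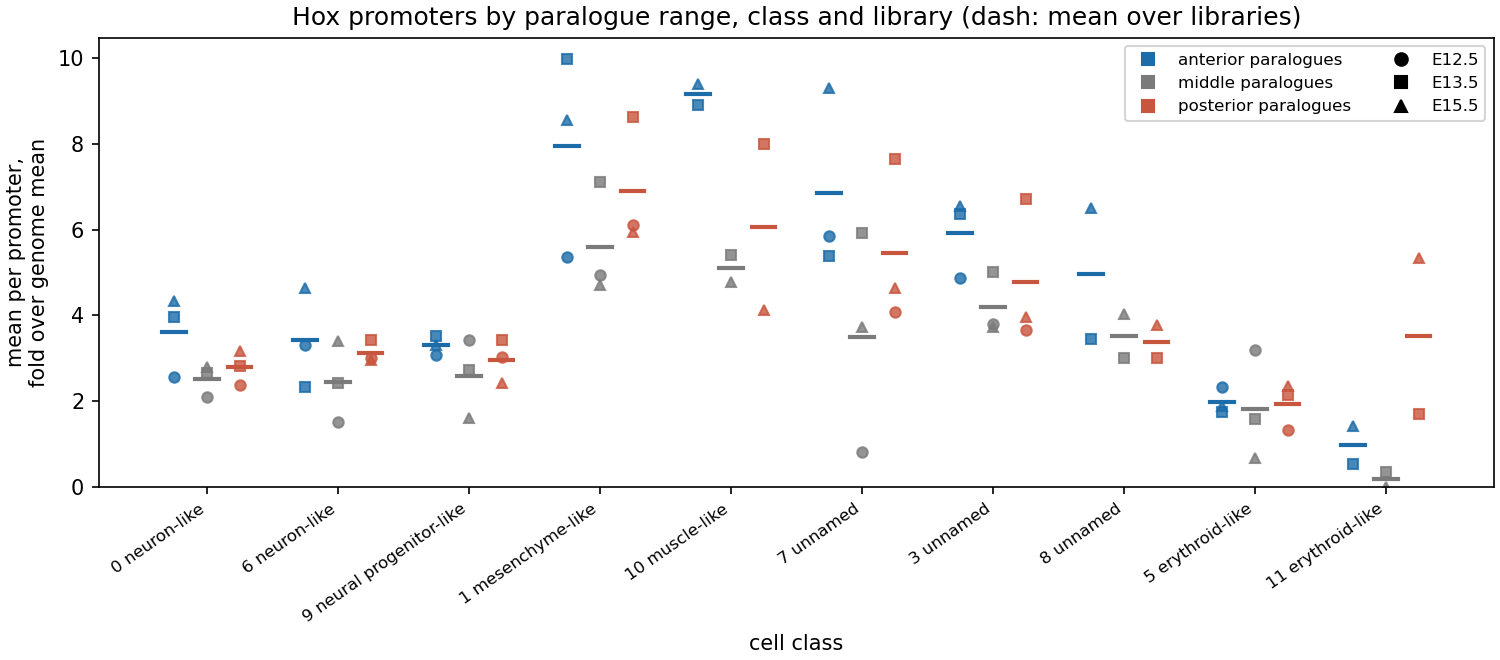
Mean level per Hox promoter (vertical axis, fold over genome mean) of the anterior, middle and posterior paralogues in each class with at least 5 nuclei per library; symbols are libraries and dashes their mean. The anterior genes of muscle-like cluster 10 (8.90 to 9.41-fold) lie above the anterior genes of the neuron-like clusters 0 (2.57 to 4.33-fold) and 6 (2.33 to 4.65-fold) in every library.

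Whether a Hox promoter differed among classes was tested with edgeR's quasi-likelihood test on fragment sums per class and library, with Benjamini-Hochberg adjustment over all 13949 promoters tested. Of the 39 Hox promoters, 36 passed the filter on low counts (Hoxa9, Hoxb8 and Hoxc12 did not), and 33 of the 36 differed at an adjusted p under 0.05, against 55.8% of all promoters tested. The 3 that did not were Hoxc4, Hoxc8 and Hoxc9. The count depended on which classes entered: without cluster 3, which has the lowest promoter share, and the erythroid-like clusters 5 and 11, 10 of 29 tested differed, against 25.7% of all promoters. Among these 10 were Hoxa3, Hoxa4, Hoxa5, Hoxa7, Hoxa10, Hoxa13, Hoxc10, Hoxd3 and Hoxd10. Without cluster 3 alone, 24 Hox promoters passed the filter on low counts. Part of the 36 thus entered the test only with cluster 3 in the fit. Scaled to all fragments, 19 of 36 differed, against 82% of all promoters, so that the Hox share then lay below that of all promoters. The count also leaned on E13.5 and E15.5, the 2 libraries with more nuclei. It was 3 of 16 tested without E13.5 (11.2% of all promoters) and 15 of 33 without E15.5 (28.4%), against 33 of 36 without E12.5 (60.2%).

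Each class was then set against the mean of the others. In mesenchyme-like cluster 1, 15 of 36 Hox promoters were higher and none lower, where 9.68% of all promoters were higher. Without E13.5 none of 16 tested was called (3 at an unadjusted p under 0.05; 1.46% of all promoters were called higher), without E15.5 4 of 33 were (2.94%), and DESeq2 called 9 (8.47%). Of the 15 calls, 9 were in cluster A. In the CPM of E12.5, E13.5 and E15.5 in that order, Hoxa2, which patterns the second branchial arch, stood at 50.8, 35.7 and 38.3 CPM in cluster 1 and at 20.2, 11.7 and 12.4 CPM in cluster 0, groups that did not overlap. Hoxa2 was named for its small p in cluster 1, so this gap is no separate support. Its E12.5 values rest on few fragments. Against the mean of the other classes its log2 fold change was 1.85 ± 0.46 (edgeR, adjusted p = 0.0019). Against cluster 0 alone it was 1.60 ± 0.54 (edgeR, adjusted p = 0.034).

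Hoxa3, a gene of the third pharyngeal arch, had the smallest p in cluster 1, with a log2 fold change of 2.41 ± 0.45 (adjusted p = 8.3e-06). Its level was uneven between libraries, at 12.7, 71.3 and 30.3 CPM. The start of its principal transcript lies 40466 bp from its start codon, between the genes Hoxa6 and Hoxa7, so the window is not next to the Hoxa3 coding sequence. Of the posterior genes, Hoxa10, Hoxa11, Hoxa13, Hoxd10 and Hoxd13 were higher in cluster 1. Hoxa13, the last gene of cluster A and a gene of the distal limb and hindgut, stood at 12.7, 36.5 and 32.3 CPM in cluster 1 and at 0, 10.3 and 4.81 CPM in cluster 0.

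In muscle-like cluster 10, 14 of 36 Hox promoters were higher, against 7.02% of all promoters. Only E13.5 and E15.5 had enough nuclei. The count was 1 of 16 tested without E13.5 (1.08% of all promoters), 7 of 33 without E15.5 (2.89%) and 9 when scaled to all fragments (3.91%). With 1000 bp on either side it was 24 of 39 (8.37%). Hoxa5, a gene of the cervical and thoracic levels, stood at 91.5 and 90.3 CPM, above every other class and library tested, with a log2 fold change of 2.79 ± 0.42 (adjusted p = 2.0e-08). Hoxa4 stood at 68.1 and 120 CPM (log2 fold change 1.64 ± 0.35, adjusted p = 0.00016). Against mesenchyme-like cluster 1, 1 Hox promoter was higher in cluster 10, Hoxd3 (29.2 and 38.7 CPM against 0, 3.48 and 5.04), with a log2 fold change of 2.98 ± 0.87 (adjusted p = 0.037), where 1.49% of all promoters were higher. It was not called without E13.5, without E15.5 or with the window at the start codon. The median log2 fold change was 0.26 over the 36 and −0.010 over all promoters. Scaled to all fragments these medians were −0.20 and −0.47, with 1 Hox promoter higher and 1 lower. Of all 13949 promoters, 159 were then higher and 1605 lower. That contrast was chosen after the values were seen.

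In unnamed cluster 7, 3 Hox promoters were higher, among them Hoxa5 and Hoxd10, against 5.95% of all promoters. The count was 0 without E13.5 and 0 without E15.5, with 3 and 5 at an unadjusted p under 0.05. Of all promoters, 71 of 12777 and 217 of 14293 were higher in those fits. In each neuron-like class 1 was higher: Hoxd11 in cluster 0 and Hoxb13 in cluster 6, where 14.1% and 10.2% of all promoters were higher. Neither was called without E13.5 or without E15.5. In unnamed cluster 3, 31 of 36 were higher, against 16.3% of all promoters. Scaled to all fragments that count was 14 (1.71%). Without E13.5 it was 1 of 16 (1.23%) and without E15.5 19 of 33 (5.77%). With cluster 3 left out, 24 Hox promoters passed the filter on low counts, and 13353 of all promoters did. Part of the 36 thus entered the test only with cluster 3 in the fit, so the 31 is not independent of that filter. With edgeR and with DESeq2, no Hox promoter was called in clusters 8 and 9, where edgeR called 6.85% and 10.2% of all promoters and 4 and 0 Hox promoters reached an unadjusted p under 0.05. Without clusters 3, 5 and 11, 2 remained higher in cluster 1 (Hoxa3 and Hoxb6; 3.57% of all promoters) and 6 in cluster 10 (among them Hoxa4, Hoxa5, Hoxa7, Hoxc10 and Hoxd3; 3.14%). In that comparison 2 were lower in cluster 0 (Hoxa13 and Hoxd10, against 6.04% of all promoters) and 3 in cluster 6 (among them Hoxa4 and Hoxa5, against 1.74%). In cluster 8, 1 was lower (Hoxc13), where 622 of all 13812 promoters were.

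In cluster 5, which is erythroid-like, 1 Hox promoter was lower than the mean of the others, Hoxa4 (log2 fold change −1.33 ± 0.49, adjusted p = 0.033), against 7.15% of all promoters lower, and it was not called without E13.5 or without E15.5. DESeq2 called 14 lower in cluster 5, against 23.2% of all promoters. In cluster 11, 13 of 36 were lower, against 22.7% of all promoters. That count ranged widely: it was 3 with DESeq2 (17.5%), 1 when scaled to all fragments (2.62%), 0 without E13.5 (0 at an unadjusted p under 0.05), 3 without E15.5 (16.8%), 35 of 39 with 1000 bp on either side (31.2%) and 31 of 39 with gene bodies (30.4%). Without E13.5, none of the 12777 promoters tested was called lower in cluster 11, so the 0 there is not particular to Hox promoters. With E13.5 or E15.5 left out, cluster 11 had 1 library in the fit. The 43 nuclei of cluster 11 held 12 fragments in all in the 39 promoters, and 34 promoters had none. For a promoter with none, a floor of 3 fragments over the class allows up to 10.1-fold over the genome mean. For 7 of these 34 the level of cluster 1 lies above that floor, and Hoxa3 was at least 1.53-fold higher in cluster 1. For the other 27 this floor gives no bound against cluster 1 on the scale of the genome mean. Of these 27, 5 (Hoxa6, Hoxa11, Hoxc13, Hoxd1 and Hoxd9) are among the 13 called lower than the mean of the other classes. Those calls rest on promoter fragments, a larger share of all fragments in cluster 11 than in cluster 1, so this floor does not apply to them. No floor in CPM was compared with cluster 1.

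Hoxc10, a posterior gene of the lumbar level and hindlimb, stood above the other Hox promoters in both erythroid-like classes with the libraries summed. It held 8 of the 12 fragments of cluster 11, at 32.9 CPM (exact Poisson 95% interval 14.2 to 64.8), and in cluster 5 it held 53 fragments, at 24.7 CPM (18.5 to 32.3), where the mean Hox promoter was at 6.33 ± 2.72 CPM (SD over 3 libraries). In neuron-like cluster 0 it was at 19.2 CPM (13.9 to 25.9), where the mean Hox promoter was at 14.2 ± 0.41 CPM. These intervals cover counting error only. By library, Hoxc10 stood at 12.9, 23.9 and 47.3 CPM in cluster 5 and at 24.3 and 91.1 CPM in cluster 11. The values of 12.9 and 47.3 CPM come from 10 nuclei each and that of 91.1 CPM from 7. They rest on few fragments, so no order of the stages is read from them. Apart from cluster 11, the level of Hoxc10 over the genome mean was highest in muscle-like cluster 10, where it was called higher.

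Mesenchyme-like cluster 1 and neuron-like cluster 0 have similar numbers of nuclei and promoter shares nearer to each other than clusters 3 and 11 have, and were compared directly, a contrast added after the values were seen. Of 36 tested, 7 Hox promoters were higher in cluster 1 and none lower, where 6.41% of all promoters were higher. Among them were Hoxa13 (log2 fold change 2.28 ± 0.65, adjusted p = 0.0070), Hoxd10 (1.83 ± 0.53, adjusted p = 0.0091), Hoxa3, Hoxa5, Hoxa2 and Hoxa4 (1.16 ± 0.39, adjusted p = 0.029). Of the 7, 6 lie in cluster A, where 10 promoters were tested, and none in clusters B and C. The median log2 fold change was 0.69 over the 36 Hox promoters and −0.024 over all promoters. Without E13.5 or without E15.5, no Hox promoter was called in this contrast (1 of 16 and 4 of 33 at an unadjusted p under 0.05). Of all promoters, 228 of 12777 and 99 of 14293 were then higher in cluster 1. Without E12.5, 7 Hox promoters were called, and 998 of all 14040 promoters were higher. All 7 had a positive fold change in each of these fits in which they were tested. These fits share libraries with the fit that picked the 7, so the sign is no separate check.

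**Figure D3:**
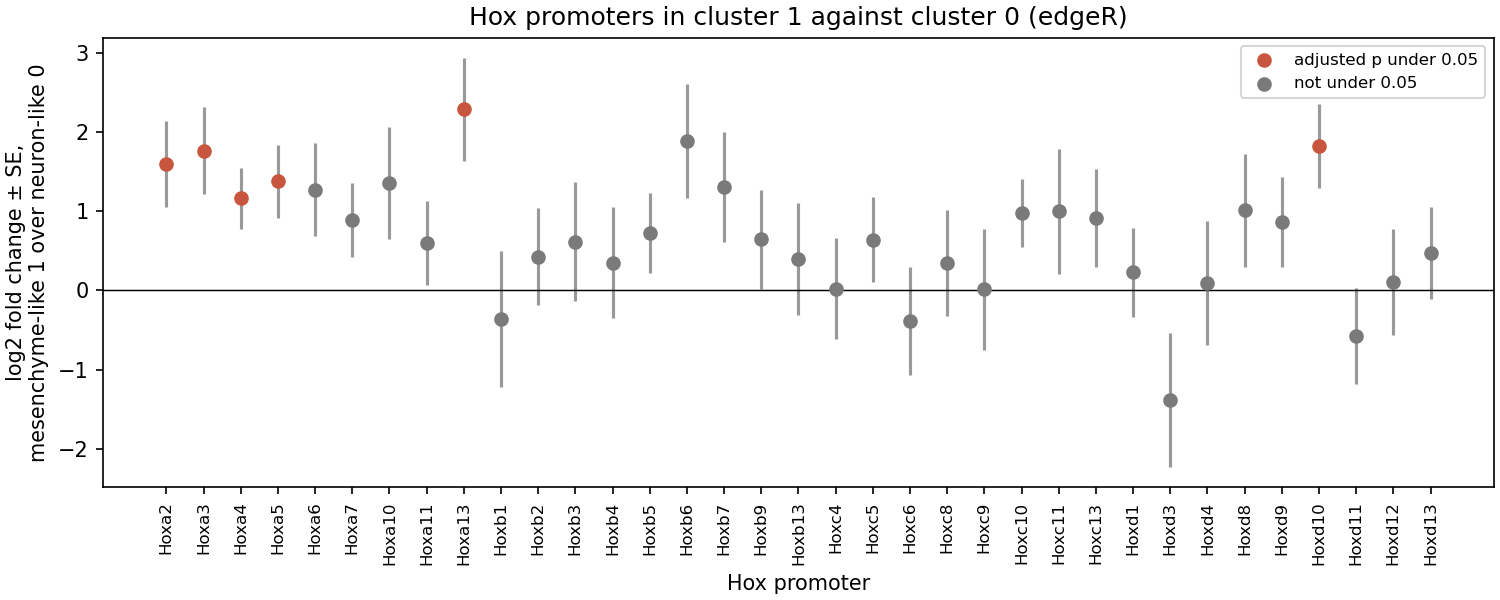
Log2 fold change with its standard error (edgeR) of the Hox promoters tested (1 is not shown), mesenchyme-like cluster 1 over neuron-like cluster 0; red marks an adjusted p under 0.05. The 6 red points shown lie above 0, from 1.16 (Hoxa4) to 2.28 (Hoxa13), and 5 of them are genes of cluster A.

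The 2 neuron-like classes, 6 and 0, had no Hox promoter called between them (0 of 36, 3 at an unadjusted p under 0.05, edgeR), where 0.143% of all promoters were called, with a median log2 fold change of −0.38 over the 36. Cluster 7 against cluster 1 likewise gave 0 of 36, with 1 at an unadjusted p under 0.05 and 0.91% of all promoters called. Neither count shows that the classes were alike.

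The remaining ends of the clusters were followed as well. Hoxb1, the first gene of cluster B and a marker of rhombomere 4, stood at 12.7, 4.35 and 4.03 CPM in cluster 1 and at 0, 4.39 and 8.93 CPM in cluster 0. Hoxb13, the last gene of cluster B, stood at 0, 22.6 and 6.05 CPM in cluster 1 and at 37.9, 18.0 and 30.8 CPM in neuron-like cluster 6, the class in which it was called. Hoxc4 stood at 0, 15.7 and 11.1 CPM and Hoxc13 at 50.8, 28.7 and 15.1 CPM in cluster 1. Hoxd1 stood at 25.4, 27.0 and 21.2 CPM and Hoxd13, a gene of the digits, at 0, 25.2 and 32.3 CPM in cluster 1. At E12.5 a value of 12.7 CPM in cluster 1 is a single fragment, so zeros there carry little weight.

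The 5 kb bins need no gene model. Of the 103 Hox bins, 100 were tested and 51 differed among the 10 classes, against 18.7% of 256204 bins over the genome. The count was 89 with RLE size factors (39.8% of all bins), 2 of 89 tested without E13.5 (2.28%) and 4 of 103 without E15.5 (1.84%). By cluster these were 20 of 22 in A, 13 of 34 in B, 11 of 24 in C and 7 of 20 in D. Without clusters 3, 5 and 11, 23 of 99 differed, against 11.4% of all bins. In mesenchyme-like cluster 1, 41 of 100 were higher (21 in A, 14 in B, 5 in C, 1 in D), against 4.5% of all bins.

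Span A was at 6.21-fold over the genome mean in cluster 1 and 6.12-fold in cluster 10, with its flanks of 100 kb on each side at 1.27-fold and 1.29-fold. It was at 2.67-fold in neuron-like cluster 0 (flanks 1.00-fold) and 1.12-fold in erythroid-like cluster 5 (flanks 0.616-fold). Span B was at 3.29-fold, C at 3.60-fold and D at 3.28-fold in cluster 1, against 1.74-fold, 2.05-fold and 2.23-fold in cluster 0. By library, span A in cluster 1 was at 4.83, 6.51 and 5.92-fold and in cluster 0 at 1.69, 2.98 and 2.60-fold in stage order, and the groups did not overlap. Beside the spans, 1 of the 40 flank bins of cluster D was read, beyond the high-numbered end and 190 kb from the low-numbered end. The bin was not among the planned comparisons, and no test of it is given. Flank bins were not matched to genes other than Hox genes, so the bin is assigned to no gene or element. It was at 11.9-fold in cluster 5 and 42.1-fold in cluster 11, against 5.61-fold in cluster 0. Promoters with an observed to expected CpG ratio of at least 0.6 had medians of 28.7, 70.5 and 20.9-fold in these classes, in that order. Those medians are for windows of 1101 bp and the bin is 5 kb wide, so their sizes cannot be compared with it.

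**Figure D4:**
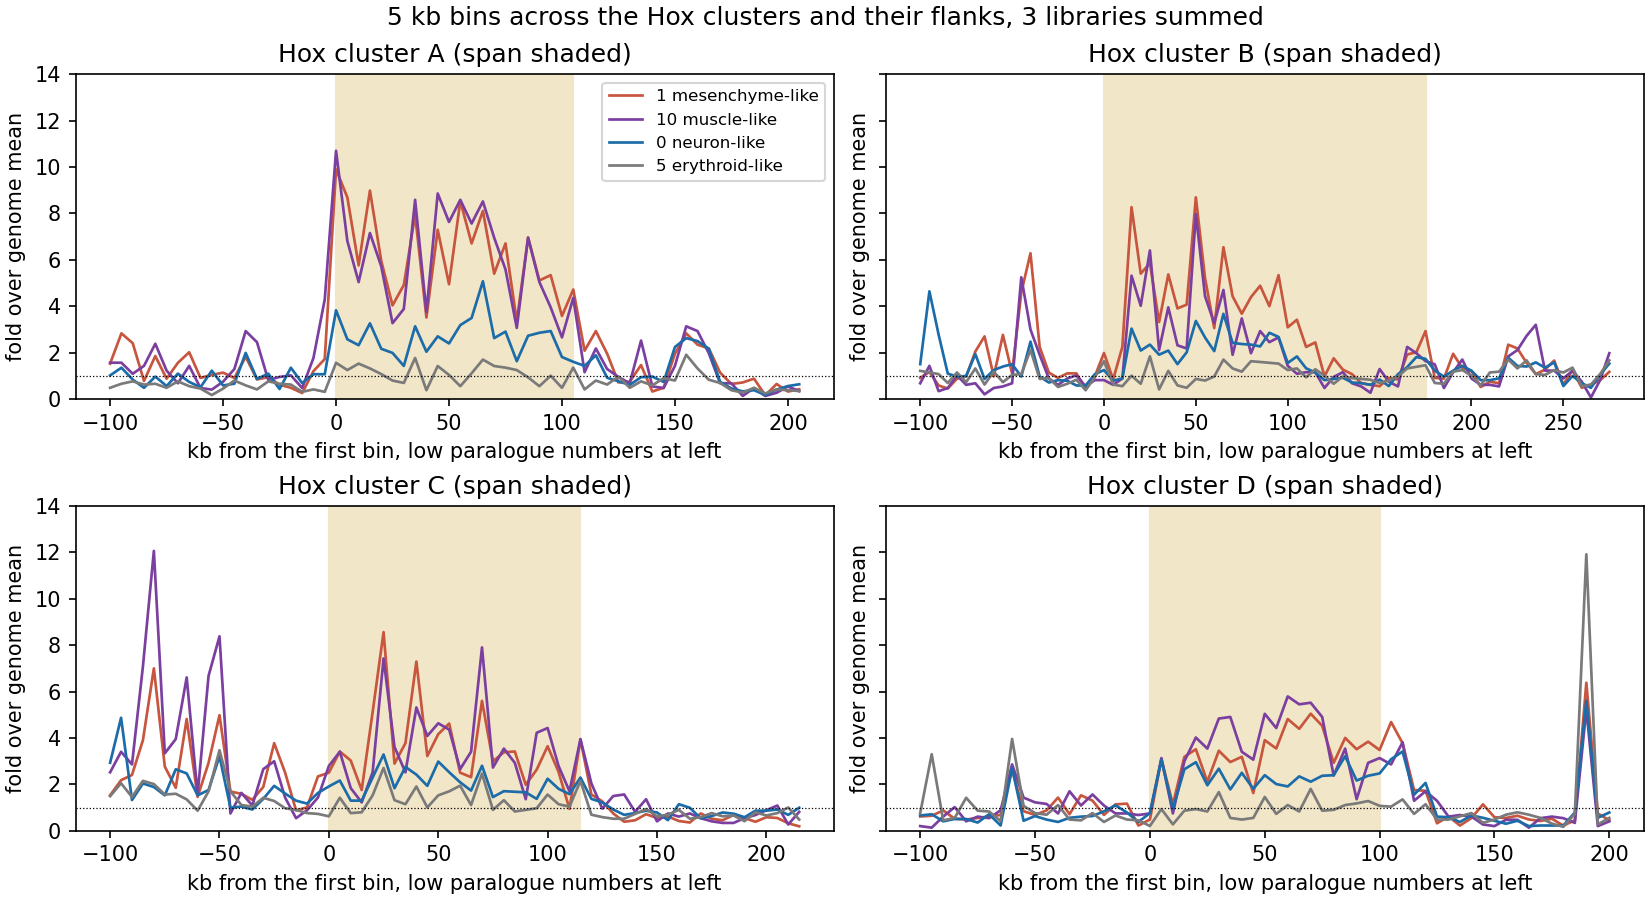
Fragment density in 5 kb bins (vertical axis, fold over genome mean; dotted line at 1) along each Hox cluster and 100 kb on either side, by distance in kb with low paralogue numbers at left, for 4 classes with the 3 libraries summed. In span A cluster 1 averages 6.21-fold and cluster 0 2.67-fold, and both fall to 1.27-fold and 1.00-fold in the flanks.

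In windows of 500 bp on either side of the microRNA hairpins, Mir196b, in cluster A, was at 7.25-fold in cluster 1, 6.84-fold in cluster 10 and 3.93-fold in cluster 0. Mir10a in cluster B was at 2.22-fold in cluster 1 and 4.35-fold in cluster 10. Mir10b in cluster D was at 1.48-fold and 0.31-fold, and Mir196a-1 in cluster B at 2.22-fold and 0.62-fold in the same classes. Mir196a-2 in cluster C was at 2.81-fold and 3.42-fold there. The cluster 10 values of Mir10b and Mir196a-1 rest on 1 and 2 fragments. No test was run on these windows.

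Fragments in the 4 spans were also counted per nucleus after each nucleus was thinned to 20000 fragments. The mean was 15.4 in cluster 1 (237 nuclei), 15.2 in cluster 10 (75), 13.1 in cluster 7 (100), 12.9 in cluster 3 (208), 8.37 in cluster 0 (242), 7.03 in cluster 6 (119), 6.60 in cluster 9 (78) and 3.83 in cluster 5 (157). Shallower nuclei were left out, 18 in cluster 1, 28 in cluster 0, 29 in cluster 5 and 32 of the 43 in cluster 11. Fragments in at least 3 of the 4 spans were found in 89.9% of cluster 1 nuclei, 70.2% of cluster 0 and 26.8% of cluster 5. The variance over nuclei ran from 1.97 times the mean in cluster 6 to 5.78 times in cluster 7, with 5.31 times in cluster 3 and 4.75 times in cluster 1. In cluster 1, nuclei with at least 2 fragments in span A held on average 4.52 in span B, against 3.23 in the others, but 2.44 against 3 in span D.

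**Figure D5:**
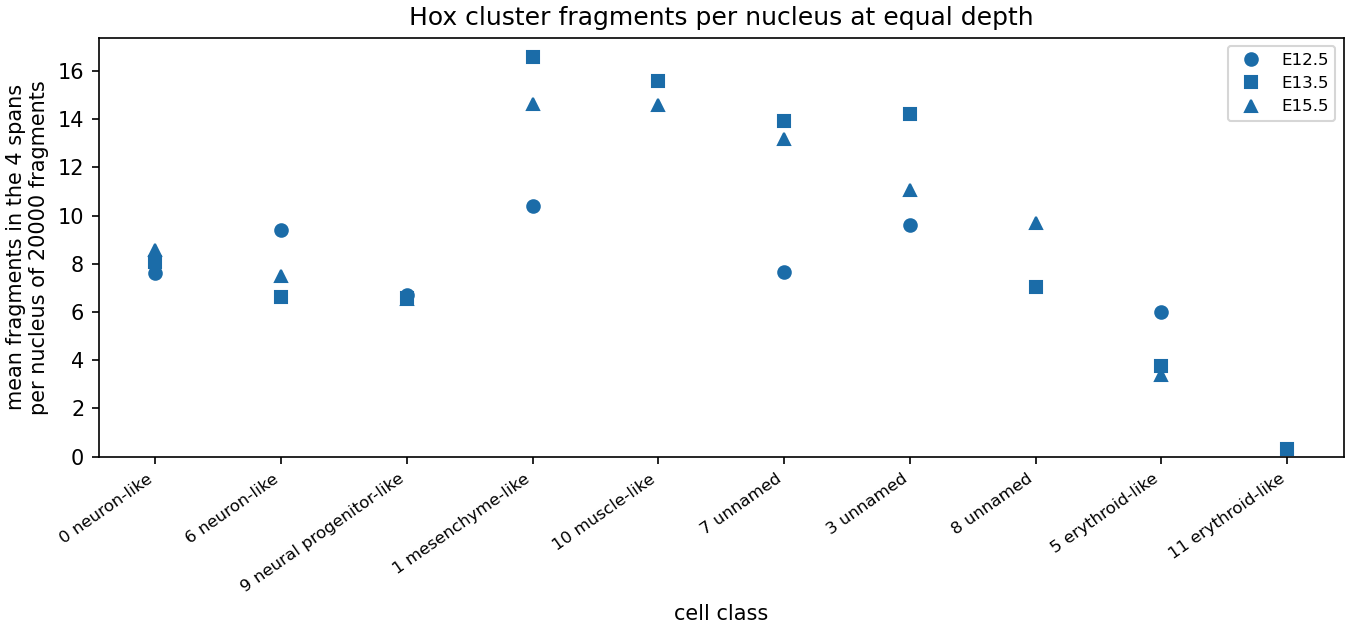
Mean number of fragments in the 4 Hox spans per nucleus, after thinning to 20000 fragments, by class (horizontal axis) and library (symbols; at least 5 nuclei). Over the libraries together, clusters 1 and 10 average 15.4 and 15.2 fragments, the neuron-like clusters 0 and 6 average 8.37 and 7.03, and erythroid-like cluster 5 averages 3.83.

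Between stages there was 1 library each and no test, and stage, embryo and section plane cannot be told apart. The mix of classes also differed between the libraries. Cluster 3 gave 25 of 83, 133 of 809 and 50 of 558 nuclei in stage order, and cluster 5 gave 10, 166 and 10. The part of this mix in the levels pooled over classes was not tested. Over all 10 classes the posterior genes stood at 18.7 CPM per promoter in E12.5 (exact Poisson 95% interval 16.0 to 21.8), 20.3 CPM in E13.5 (19.4 to 21.2) and 14.9 CPM in E15.5 (13.9 to 15.9). As a fold over the genome mean they stood at 3.36, 4.97 and 3.98-fold, so E12.5 lay above E15.5 in CPM and below it on the fold scale. In mesenchyme-like cluster 1 they stood at 22.2 (13.8 to 34.0), 30.4 (27.5 to 33.4) and 18.2 (15.8 to 20.7), and the intervals, which cover counting error in 1 library per stage and not the spread between embryos, did not overlap for E13.5 and E15.5. Anterior genes in cluster 1 stood at 19.5 (12.4 to 29.2), 35.1 (32.4 to 38.1) and 26.1 (23.6 to 28.8). In neuron-like cluster 0 the posterior genes stood at 14.3 (8.34 to 22.9), 12.8 (10.5 to 15.52) and 12.48 (10.9 to 14.3), with overlapping intervals.

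Other genes of the pathway were read from lists. The shares over all promoters are 55.8% differing among the 10 classes and 25.7% without clusters 3, 5 and 11. Of the Hox cofactors of the Meis, Pbx and Pknox families, 7 of 9 were tested and 7 differed among the classes, and 4 of 8 did so without clusters 3, 5 and 11. Of the regulators upstream of Hox genes, 9 of 11 tested differed (4 of 12 without those clusters), and against cluster 0, where 6.41% of all promoters were higher, cluster 1 was higher at 3 of the 11, Rarg, a retinoic acid receptor (log2 fold change 1.76 ± 0.38), Aldh1a2, which makes retinoic acid (1.48 ± 0.47), and Egr2, a hindbrain factor (1.18 ± 0.33). Of the Polycomb and trithorax genes 8 of 15 differed, and 0 of 15 without clusters 3, 5 and 11 (edgeR). Of genes beside the clusters, 3 of 6 tested differed, Cbx5, Hibadh and Skap2. Of the head region factors, which mark tissue that lacks Hox expression, 8 of 8 differed (6 of 9 without those clusters). In cluster 1 against cluster 0, 2 of the 8 head region factors tested were lower, where 4.94% of all promoters were, among them the forebrain factor Six3 (log2 fold change −1.78 ± 0.58, adjusted p = 0.024). The part of nuclei from head tissue in the low Hox level of cluster 0 was not tested.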

How the data were processed

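Nuclei from mouse embryos were profiled by snATAC-seq (10x Genomics), with 1 library per stage. Per the labels and file headers, the authors processed the reads with Cell Ranger ATAC 2.0.0 against mm10, and the deposited files list unique fragments as counts of supporting read pairs with their barcodes. The deposited table gave library, cluster number and fragment counts for 1879 nuclei, and 20 of its columns were not used. The study's methods integrate the nuclei with spatial profiles (FindIntegrationAnchors, IntegrateEmbeddings and Harmony by sample). The link of the cluster numbers to that step, and their resolution, are not given in the sources used here. Fragments recounted per nucleus differed from the deposited counts by at most 0.604%. The library totals were 9402554, 87687839 and 53120243 unique fragments in stage order.

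Unique fragments were counted over GENCODE vM21 promoters (1000 bp upstream to 100 bp downstream of the principal start), which do not overlap between Hox genes, whereas 24 of 39 Hox gene windows do. Of 21938 protein-coding genes, 21751 were counted (79 of the Pcdh and Ugt families, 23 repeated symbols and 85 without a coding transcript were left out). Strand cannot be told from ATAC-seq, so antisense transcripts starting in a window are included. Sums of at least 5 nuclei per class and library (27 sums) were tested with edgeR 4.0.16 in R 4.3.3, after filterByExpr, with class and library as terms. TMM factors were used, and an adjusted p under 0.05 was a call. The script was tested on simulated data. Doublets were not removed. Barcodes sharing at least 10% of fragments were called linked (37 of the 1450 nuclei), and 1 barcode was shared by E13.5 and E15.5. Nuclei were never replicates. The p-values measure the spread of the sums that class and library leave over, and not the spread between embryos of a stage. Clusters 8, 10 and 11 had sums from 2 libraries each, the other classes from 3.

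The named genes were, in each class, the 3 called with the smallest p in each direction, the highest gene of each paralogue range and the ends of each cluster. The Hox genes and all other lists were chosen with earlier results of these data known. Alternatives were other size factors, DESeq2 1.42.0, filters, windows, cell sets, terms and libraries left out. Leaving out classes, scaling to all fragments, the window at the start codon and the direct contrasts between classes were added after seeing the data. A few items, among them 1 Hox gene that stays in every count, are not reported here by name.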

Additional observations from a re-analysis of the deposited data

Results flagged for a closer look

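Hox promoters also held signal in the 2 deposited clusters that entered no comparison. The 223 nuclei of cluster 2 held 219 fragments in the 39 promoters, a mean of 29.0 CPM per promoter, above the 0.397 CPM that a count of 3 fragments would give. The 206 nuclei of cluster 4 held 8 fragments, a mean of 16.9 CPM, against 6.33 CPM for 3 fragments. Their median depths were 7470 and 703 fragments per nucleus, promoter shares were 7.43% and 6.09%, and 45 and 93 of their nuclei shared fragments with another barcode.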

How the results depend on the processing

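The 33 of 36 Hox promoters differing among the classes became 16 of 24 tested without cluster 3 and 19 of 37 without clusters 5 and 11. They became 10 of 29 without clusters 3, 5 and 11, and 19 of 36 when scaled to all fragments. Over all promoters, 55.8% differed in the main fit, 7001 of 13353 without cluster 3 and 3998 of 14131 without clusters 5 and 11. The shares were 25.7% without clusters 3, 5 and 11 and 82% when scaled to all fragments. The 65 calls of a Hox promoter higher in a class became 29, 23, 8 and 42 under the same changes. The 14 calls of one lower became 6, 7, 6 and 2, but 37 with 1000 bp on either side and 34 with gene bodies. These totals over classes have no share over all promoters beside them, and the promoters and classes tested differed between fits. Of the Hox bins, 51 of 100 became 89 of 100 with RLE size factors, 20 of 101 without clusters 5 and 11 and 23 of 99 without clusters 3, 5 and 11. Over all bins these were 18.7%, 39.8%, 29584 of 264213 and 11.4%, in that order. The 7 promoters higher in cluster 1 than in cluster 0 became 11 when scaled to all fragments. Over all 13949 promoters, 894 were higher in the main fit and 2685 when scaled to all fragments. The median log2 fold change over all promoters went from −0.024 to 0.36, and over the Hox promoters from 0.69 to 1.06. Leaving out each library in turn gave 3 to 33 promoters differing, 2 to 64 higher, 0 to 15 lower, 2 to 68 bins and 0 to 7 for cluster 1 over cluster 0; the lowest values came without E13.5 (also 0 without E15.5 for the last), which leaves fewer fragments and promoters tested. The cause of the other changes was not tested.

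Scaled to all fragments, the mean level per Hox promoter was 1.48 per 1000000 fragments in cluster 0, 3.36 in 1, 2.46 in 3, 0.937 in 5, 1.48 in 6, 2.61 in 7, 1.96 in 8, 1.45 in 9 and 3.37 in 10, a unit that differs by construction. With the window at the start codon it was 17.8 CPM in cluster 0, 33.2 in 1, 44.1 in 3, 9.90 in 5, 15.4 in 6, 27.7 in 7, 20.4 in 8 and 44.2 in 10, and with 1000 bp on either side 17.9 in cluster 0, 40.5 in 3, 15.2 in 6, 18.7 in 8 and 37.9 in 10. The order of the classes turned with the scale: cluster 3 was above clusters 1 and 10 in CPM and below both when scaled to all fragments. The Hox median of cluster 10 over cluster 1 went from 0.26 to −0.20 (log2) when scaled to all fragments. Over all promoters it went from −0.010 to −0.47. Without clusters 3, 5 and 11 the Hox median against the mean of the others went from 0.63 to −0.26 in cluster 0. In cluster 6 it went from 0.14 to −0.55. Over all promoters these medians went from 0.12 to 0.037 and from 0.10 to 0.011, in that order. No paired analysis was possible between stages because each stage has 1 library. Between classes, library was a term of the fit. Without it, 33 of 36 Hox promoters differed (7497 of all 13949) and 42 of 100 Hox bins (45877 of all 256204). The calls of a Hox promoter higher in a class were then 59, and those of one lower 10. With 2 or 3 libraries per class, few fragments limit the calls, and 3 classes had under 5 nuclei at E12.5.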
